A study of Mus musculus with 6 samples.

Results

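Transcript levels of 8 steroid enzyme genes were followed in livers of mice given a fruit extract and in livers of mice given water. The genes were the rows for Hsd3b2, Hsd3b3, Hsd3b5 and Hsd3b6 of the hydroxysteroid dehydrogenase cluster on chromosome 3, together with Cyp17a1, Srd5a1, Hsd11b1 and Hsd17b2. They are 8 of 17738 genes with values, and 7 of them reached 1 FPKM (fragments scaled to transcript length and library size) in at least 3 libraries, the minimum for the fit over 10282 genes. They were picked with the extract-to-water differences already known, so their levels and differences are given as a description, with no test.

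The extract group received an ethyl acetate fraction, prepared from the hydrosoluble extract of Chebulae Fructus (fruit of the tree Terminalia chebula) at 1 g/kg per day by gavage for 1 week. Its comparison group received water at 10 ml/kg by gavage for 1 week. All mice were of the ICR stock, which is outbred, and their sex and age are not given in the labels. Each group has 3 libraries of poly(A)-selected RNA, called extract 1 to 3 and water 1 to 3. The labels do not state that each library is a separate animal, so tests measure the spread between these libraries, which may be technical.

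Steroid hormones are made in adrenal cortex and gonads and are cleared largely in the liver. The Hsd3b enzymes oxidise the hydroxyl group on the first ring of a steroid precursor and shift its double bond, which turns pregnenolone into progesterone, while some mouse members act instead as ketosteroid reductases. Mouse liver is known for Hsd3b2, Hsd3b3 and Hsd3b5, and Hsd3b5 is known as a male-biased transcript there. Cyp17a1 hydroxylates progesterone and pregnenolone and cleaves their side chain on the way to androgens. Srd5a1, Hsd11b1 and Hsd17b2 act on finished hormones.

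The libraries were alike in summed FPKM, between 517984 and 583245, but not in how they bear on the comparison. By limma, 5 of 10282 genes had a Benjamini-Hochberg adjusted p below 0.05 (0.0486%), 2 higher in extract livers (0.0195%) and 3 lower (0.0292%). Without extract 3 the count was 48, without water 3 it was 1, and without any one of the other 4 libraries it was 0 (729 to 1580 genes at unadjusted p below 0.05). Read totals are unknown, so no counting error can be given for a level. The tissue label was matched by hepatocyte transcripts, with Alb between 45371 and 71236 FPKM. In whole liver, fewer cells of a type and less RNA per cell cannot be told apart.

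On GRCm38 the cluster from Hsd3b4 to Hsd3b1 spans 361 kb, at chr3:98499071-98859794, and holds 7 protein-coding genes and 6 pseudogenes in the RefSeq annotation. Hsd3b5 (gene ID 15496) lies at chr3:98618636-98645534, Hsd3b2 (15493) at chr3:98711107-98724543, Hsd3b3 (15494) at chr3:98741476-98764540 and Hsd3b6 (15497) at chr3:98805504-98814443. All 4 are on the minus strand. The other members are scattered, with Cyp17a1 (13074) at chr19:46667165-46673000, Srd5a1 (78925) at chr13:69573449-69611485, Hsd11b1 (15483) at chr1:193221640-193264045 and Hsd17b2 (15486) at chr8:117700982-117759030.

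The cluster genes are close copies, which bears on how far their levels can be told apart. Over the longest open reading frame, of 1122 bases in each, Hsd3b2 was 95.1% identical to Hsd3b3 and 94.4% identical to Hsd3b6, and only 80.3% identical to Hsd3b5. Hsd3b5 was nearest to Hsd3b4, at 95.2%. Of the 100-base windows of each gene's chosen GENCODE M21 transcript, 92.9% occurred in no other gene for Hsd3b2, 85.1% for Hsd3b3, 92.2% for Hsd3b5 and 96.7% for Hsd3b6. Hsd3b4 had 0% of windows to itself, because Gm10681 carries the same transcript. Levels of Hsd3b2 and Hsd3b3 therefore rest in part on how reads were divided between that pair, while no 100-base window of Hsd3b5 was shared with Hsd3b2 or Hsd3b3. Cyp17a1, Hsd11b1 and Hsd17b2 shared no window with another gene.

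The 250 bases before a RefSeq start of each cluster member are shown because the 4 genes lie side by side and differ in level and pattern. They were taken from RefSeq's promoter table on GRCm38.p6 and are printed on the minus strand, 5′ to 3′. In Hsd3b2 (chr3:98724544-98724793) and Hsd3b6 (chr3:98814444-98814693) capitals mark motif matches. In Hsd3b3 (chr3:98763129-98763378) and Hsd3b5 (chr3:98645535-98645784) they mark a run of letters that the pair shares.
Hsd3b2: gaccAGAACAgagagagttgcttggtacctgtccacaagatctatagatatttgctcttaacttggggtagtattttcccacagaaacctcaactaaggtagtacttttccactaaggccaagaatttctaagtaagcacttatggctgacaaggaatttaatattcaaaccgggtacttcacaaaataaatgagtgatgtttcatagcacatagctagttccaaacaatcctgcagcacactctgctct
Hsd3b3: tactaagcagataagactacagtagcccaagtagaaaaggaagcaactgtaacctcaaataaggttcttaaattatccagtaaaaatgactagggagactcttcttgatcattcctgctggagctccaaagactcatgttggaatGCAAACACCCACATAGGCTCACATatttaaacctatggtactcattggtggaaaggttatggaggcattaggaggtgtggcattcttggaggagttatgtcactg
Hsd3b5: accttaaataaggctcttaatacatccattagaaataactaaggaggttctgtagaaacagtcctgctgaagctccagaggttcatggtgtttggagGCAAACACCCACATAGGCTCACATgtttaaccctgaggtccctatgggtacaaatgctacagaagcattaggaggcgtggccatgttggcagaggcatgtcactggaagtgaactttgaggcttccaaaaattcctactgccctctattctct
Hsd3b6: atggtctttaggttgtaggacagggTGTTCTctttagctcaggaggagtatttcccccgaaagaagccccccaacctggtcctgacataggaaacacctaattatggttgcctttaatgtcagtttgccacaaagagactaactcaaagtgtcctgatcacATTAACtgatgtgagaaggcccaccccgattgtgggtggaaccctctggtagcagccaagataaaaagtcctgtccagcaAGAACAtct

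The shared run, GCAAACACCCACATAGGCTCACAT, is 24 bases long. It starts 105 bases before the start used for Hsd3b3 and 153 bases before that used for Hsd3b5. Among 32851 promoter windows of 27025 genes it was found in those of these 2 genes alone. Between any other pair of the 6 cluster genes with promoters the longest shared run was 7 to 11 bases. Both strands were searched for 6 motifs. The steroid receptor half-site TGTTCT, held by 16.1% of all promoter windows, matched in Hsd3b2 and at 2 places in Hsd3b6, and the HNF1 half-site GTTAAT, held by 6.43%, matched in Hsd3b6. The STAT motif TTCNNNGAA (7.02% of windows), the LRH-1 and SF-1 motif CAAGGTCA (1.33%), the HNF6 and CUX2 motif ATCAAT (6.72%) and TATAAA (12.4%) had no match in the 4 windows, and none of the matches overlapped. RefSeq gives Hsd3b3 a further start, whose window (chr3:98762411-98762660) also holds the run, and a protein-coding GENCODE M21 transcript begins there. None begins at the start used for the printed Hsd3b3 window or at that of Hsd3b5. Both Hsd3b3 windows lie inside the gene's RefSeq span, so the printed window may not be its main promoter. The windows thus depend on the annotation used.

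On the log2(FPKM + 1) scale, Hsd3b5 had the largest difference among the 7 fitted members, while Hsd11b1 and Hsd3b3 had larger differences of means in FPKM. It had 48.4, 109 and 22.5 FPKM in extract 1, 2 and 3, against 2.44, 2.44 and 3.40 FPKM in water 1, 2 and 3. The water libraries were all low and close together, and every extract library lay above them, with a 4.86-fold spread among the extract libraries themselves. The mean was 60.0 ± 44.5 FPKM in extract livers and 2.76 ± 0.554 FPKM in water livers (SD, n = 3 each), a ratio of 21.7, and the difference on the log2(FPKM + 1) scale was 3.75 (standard error 0.48).

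Hsd3b2, known in mouse from liver and kidney, had 77.8, 85.1 and 53.9 FPKM in extract livers, against 16.1, 13.7 and 18.2 FPKM in water livers. The groups lay far apart, with extract 3 again the lowest of its group. Means were 72.3 ± 16.3 FPKM in extract livers and 16.0 ± 2.25 FPKM in water livers (SD, n = 3 each), a ratio of 4.52 and a log2 difference of 2.09 (standard error 0.19).

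Hsd3b3 was the most abundant cluster gene in every library. It had 152, 153 and 165 FPKM in extract livers, which were nearly level, against 56.8, 79.1 and 140 FPKM in water livers. Water 3 reached almost the extract range, and the lowest extract library stood only 1.09 times above it. Means were 157 ± 7.28 FPKM in extract livers and 92.0 ± 43.1 FPKM in water livers (SD, n = 3 each), with a log2 difference of 0.86 (standard error 0.29) that was 1.21 without water 3 and 0.57 without water 1.

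Hsd3b6 was near the bottom of the measurable range and was not fitted. Its values were 0.54, 0.76 and 0.08 FPKM in extract livers, against 0.06, 0.05 and 0 FPKM in water livers. The lowest extract value and the highest water value were nearly equal, and with 56 of its 1703 windows shared with Hsd3b3, values this small are uncertain. The gland-type gene Hsd3b1, which makes progesterone in adrenal and gonads, was also low, at 0.87, 1.06 and 0.24 FPKM in extract livers against 0.07, 0.05 and 0.62 FPKM in water livers, and its groups overlapped. Hsd3b4 was listed at 0 in every water library and at no more than 0.22 FPKM in extract livers. Its copy Gm10681, with the same transcript, was listed at 0.13 FPKM in water 2 and at 0 in all other libraries. Reads of the pair cannot be told apart.

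**Figure D1:**
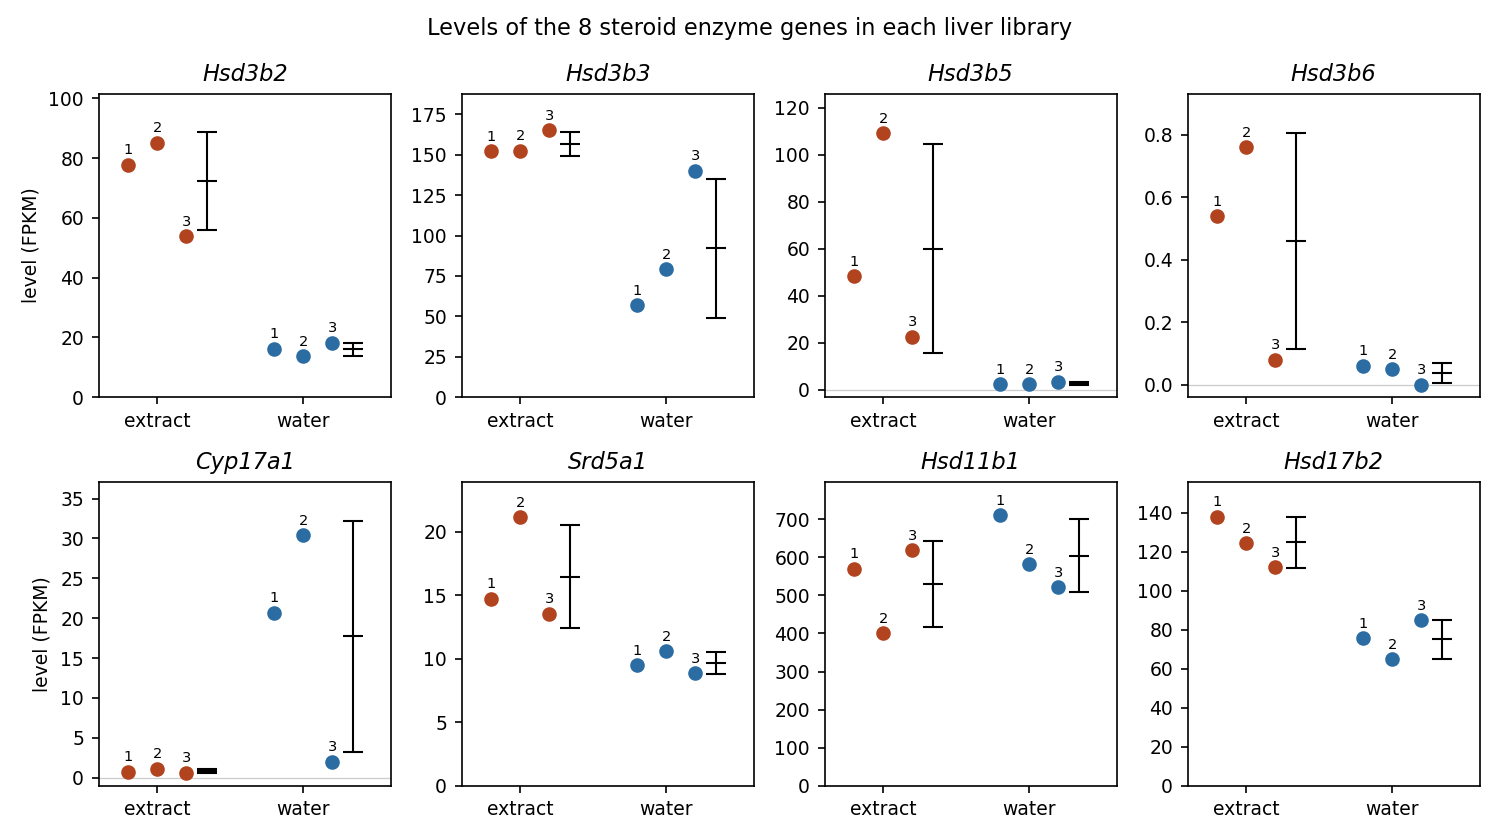
Level in FPKM (vertical axes, a linear scale per gene) of each of the 8 genes, with extract libraries left and water libraries right; points are libraries with their replicate number, and the bar beside them is the mean with its SD. Hsd3b5 sits between 22.5 and 109 FPKM in extract livers and at 2.44 to 3.40 FPKM in water livers, while Cyp17a1 is at 1.12 FPKM or less in extract livers and at 2.01 to 30.4 FPKM in water livers.

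Since FPKM is scaled per length, the cluster genes can be added. The 6 genes with values under the Hsd3b name on chromosome 3 summed to 280, 349 and 242 FPKM in extract livers, against 75.5, 95.3 and 162 FPKM in water livers. Every extract total exceeded every water total, and water 3 stood highest in its group. The mean total was 290 ± 54.3 FPKM in extract livers and 111 ± 45.5 FPKM in water livers (SD, n = 3 each), 2.61 times as much.

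Composition differed too. Hsd3b3 made up 54.4%, 43.7% and 68.3% of the cluster total in extract livers, against 75.2%, 83.0% and 86.3% in water livers. Hsd3b5 made up 17.3%, 31.3% and 9.30% in extract livers, against 3.23%, 2.56% and 2.09% in water livers. Hsd3b2 held 24.8% ± 2.78 in extract livers and 15.6% ± 5.20 in water livers (SD, n = 3 each), with extract 3 at 22.3% only just above water 1 at 21.4%. In extract 2 Hsd3b5 exceeded Hsd3b2 by a ratio of 1.28, whereas the ratio of Hsd3b5 to Hsd3b2 was 0.417 and 0.622 in the other extract libraries and 0.151 to 0.187 in water livers. Extract 3, with the lowest Hsd3b5 share of its group, was the extract library nearest to water in composition.

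**Figure D2:**
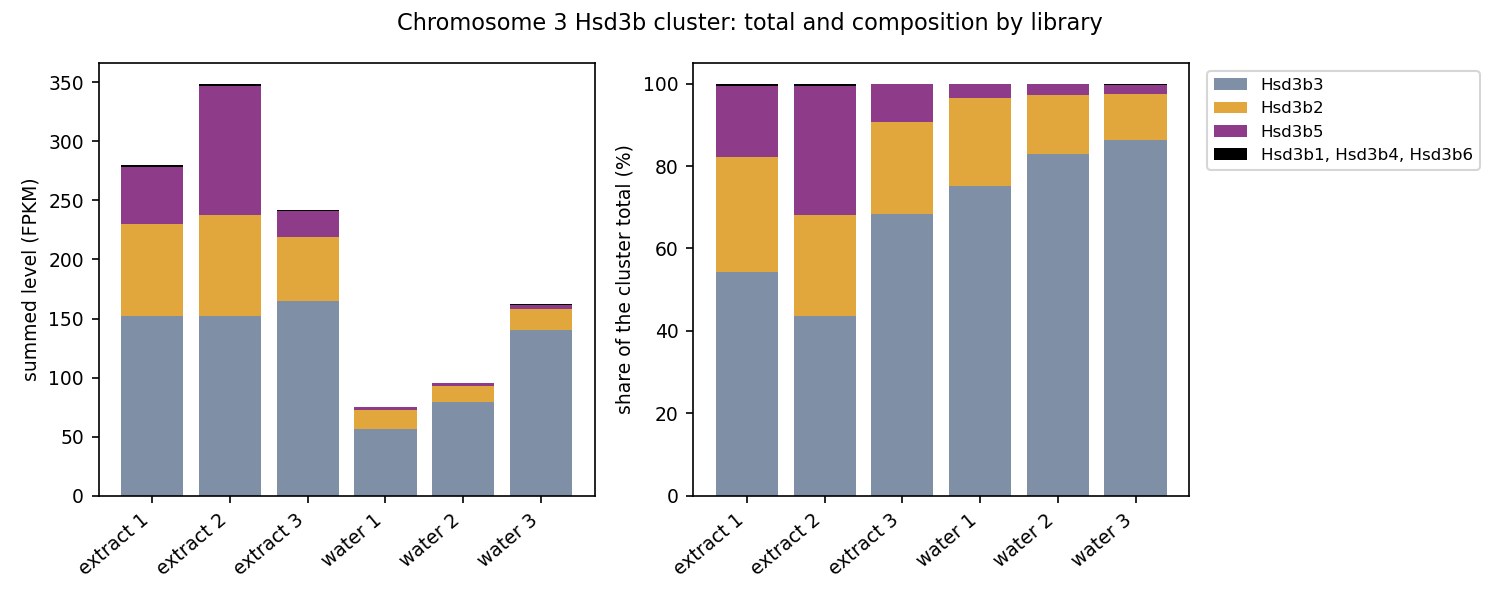
Left, summed FPKM of the chromosome 3 Hsd3b genes in each library, extract libraries first; right, each gene's share of that sum in percent. Totals run from 242 to 349 FPKM in extract livers and from 75.5 to 162 FPKM in water livers, and the Hsd3b5 share is 9.30% or more in extract livers and 3.23% or less in water livers.

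Flanking genes were not chosen on this contrast, and 2 of them are given here with their tests. Hao2, a peroxisomal hydroxy acid oxidase next to Hsd3b1 at chr3:98874519-98895376, had 7.31, 1.86 and 3.66 FPKM in extract livers and 3.29, 6.98 and 17.3 FPKM in water livers (limma adjusted p = 0.681). Wars2, which charges mitochondrial tryptophan tRNA, had a log2 difference of -0.24 (standard error 0.12, limma adjusted p = 0.559). Neither passed, and Reg4, Phgdh and Zfp697 were below the expression minimum.

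**Figure D3:**
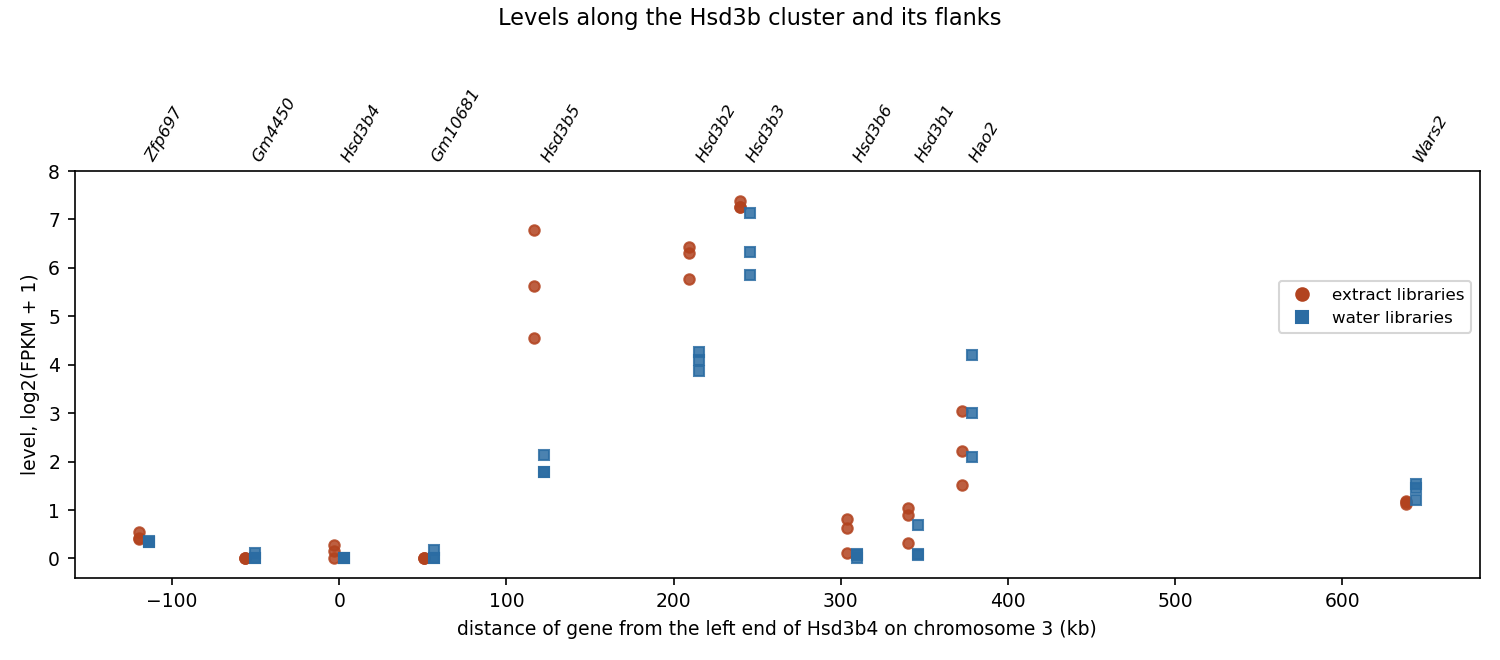
Level as log2(FPKM + 1) of each gene with values from Zfp697 on the left flank to Wars2 on the right, plotted by its distance in kb from the left end of Hsd3b4; circles are extract libraries and squares water libraries. The groups separate at Hsd3b5 and Hsd3b2, approach each other at Hsd3b3 and overlap at Hao2; the Wars2 groups lie close together without overlap.

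Cyp17a1 ran the other way. It had 0.75, 1.12 and 0.62 FPKM in extract livers, against 20.7, 30.4 and 2.01 FPKM in water livers. All extract libraries were low, but water 3 was low too, only 1.79 times above the highest extract library. Means were 0.830 ± 0.259 FPKM in extract livers and 17.7 ± 14.4 FPKM in water livers (SD, n = 3 each), and the log2 difference of -2.80 (standard error 0.77) became -3.84 without water 3 and -2.15 without water 2. Hsd3b5 exceeded Cyp17a1 by a ratio of 36.3 to 97.5 in extract livers, while in water livers the ratio was 0.118, 0.0803 and 1.69. Water 3 was thus the library in which Cyp17a1 and Hsd3b3 both lay toward the extract livers, while its Hsd3b5 and Hsd3b2 levels stayed with water.

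Srd5a1, the reductase that turns testosterone into dihydrotestosterone and also starts the clearance of glucocorticoids, had 14.7, 21.1 and 13.6 FPKM in extract livers, against 9.49, 10.6 and 8.86 FPKM in water livers. Its groups did not overlap, and extract 2 was well above the other extract libraries. The log2 difference was 0.69 (standard error 0.17), and 85.1% of its transcript windows were its own. Hsd17b2, which oxidises estradiol to estrone and testosterone to androstenedione, had 138, 124 and 112 FPKM in extract livers, against 75.5, 64.8 and 84.8 FPKM in water livers. Here too all extract libraries were above all water libraries, with a log2 difference of 0.73 (standard error 0.14).

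Hsd11b1, the hepatic enzyme that regenerates active glucocorticoid from its inert ketone, was the most abundant of the 8 genes and the only one whose groups overlapped. It had 571, 401 and 618 FPKM in extract livers, against 710, 582 and 522 FPKM in water livers. Extract 2 was the lowest and water 1 the highest library. The log2 difference was -0.20 (standard error 0.20).

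Of the 7 members in the fit, 6 had groups that did not overlap, 5 of them higher and 1 lower in extract livers. Over all 10282 genes 15.9% did not overlap, 10% with extract above water and 5.88% with extract below. As the members were chosen on this contrast, nothing is read from their share. The order of mean levels in extract livers was Hsd11b1, Hsd3b3, Hsd17b2, Hsd3b2, Hsd3b5, Srd5a1, Cyp17a1 and Hsd3b6. The ranges of Hsd3b2 and Hsd3b5 overlapped there, as did those of Cyp17a1 and Hsd3b6. In water livers it was Hsd11b1, Hsd3b3, Hsd17b2, Cyp17a1, Hsd3b2, Srd5a1, Hsd3b5 and Hsd3b6, and the ranges of Hsd3b3 and Hsd17b2 and those of Cyp17a1 and Hsd3b2 overlapped. The wide water range of Cyp17a1 also covered those of Srd5a1 and Hsd3b5, so its place in that order is not firm.

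Leaving out each library in turn kept the sign of all 7 differences. This was fixed in advance for the 6 members whose groups did not overlap, so only Hsd11b1 could have changed sign. On the log2(FPKM + 1) scale they ranged from 3.19 to 4.30 for Hsd3b5, from 1.96 to 2.29 for Hsd3b2, from 0.57 to 1.21 for Hsd3b3, from 0.51 to 0.81 for Srd5a1, from 0.63 to 0.82 for Hsd17b2, from -3.84 to -2.15 for Cyp17a1 and from -0.33 to -0.01 for Hsd11b1. The Hsd3b5 value was lowest without extract 2 and highest without extract 3.

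**Figure D4:**
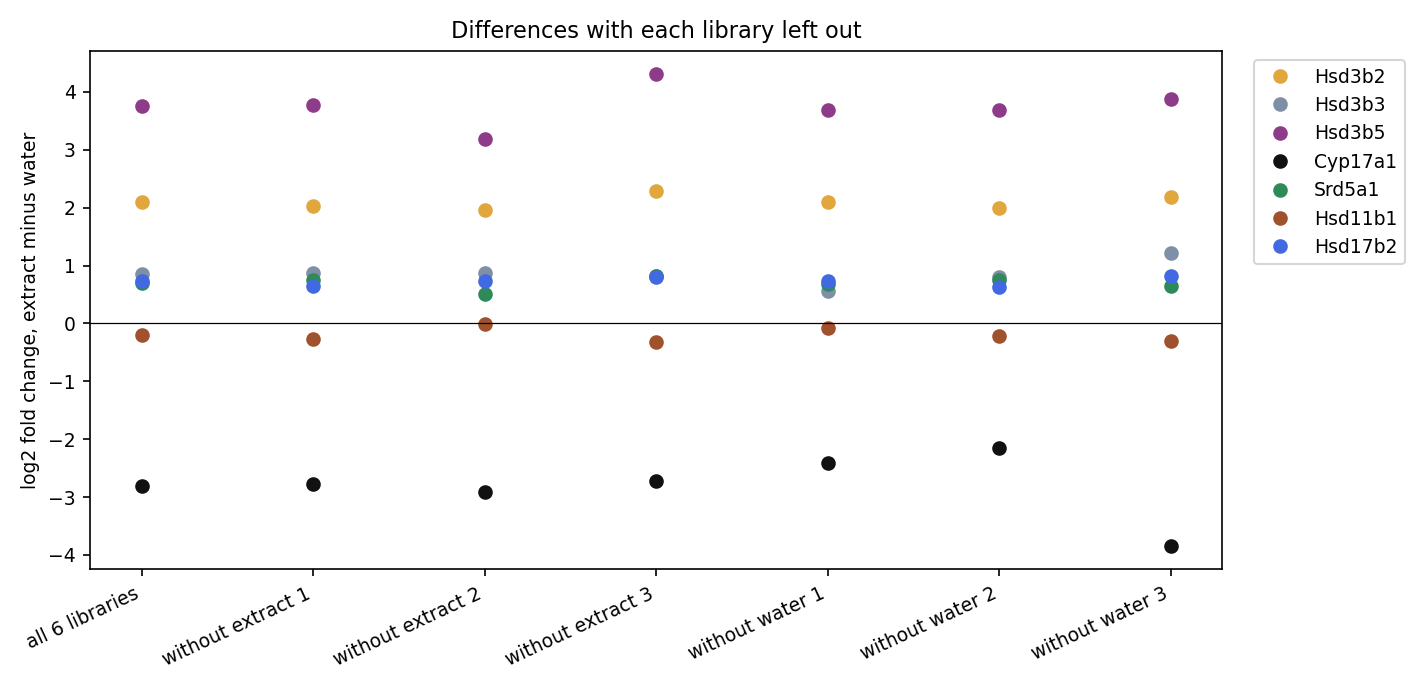
Log2 difference of FPKM + 1, extract minus water, for the 7 fitted members, with all 6 libraries and with each library left out. Every point keeps its side of 0, which leaving out a library could have changed only for Hsd11b1, whose groups overlapped. The widest shift is that of Cyp17a1, from -2.80 with all libraries to -3.84 without water 3.

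Likeness of pattern was measured as the root mean square difference of log2(FPKM + 1) after centring and scaling each gene over the 6 libraries, where 0 is the same pattern and 2 its mirror image. Among 9997 tested genes, with predicted genes left out, Sh3rf1 (0.133), Hectd2 (0.143), Islr (0.150), Nectin3 (0.156) and Aars (0.161), the cytosolic alanyl-tRNA synthetase gene, were most like Hsd3b2. Most like Hsd3b5 were Ugt2b5 (0.116), Klhl10 (0.125), Islr (0.132), Ero1lb (0.136) and Gca (0.138). Hsd3b5 and Hsd3b2 differed from each other by 0.179, whereas Hsd3b3 differed from Hsd3b2 by 0.693 and from Hsd3b5 by 0.738. The copy nearest to Hsd3b2 in coding sequence was therefore not the one nearest to it in pattern. Nearness was not particular to the cluster. Hsd17b2 differed by 0.234 from Hsd3b2 and by 0.375 from Hsd3b5, and Srd5a1 by 0.45 and 0.298. Cyp17a1 and Hsd11b1 were farther from both than Hsd3b3 was. Most like Cyp17a1 were the nicotinic receptor gene Chrna4 (0.124), Plekhf1 (0.180), Zc3h14 (0.217), the arsenic methyltransferase gene As3mt (0.220) and the globin gene Hba-a1 (0.226). Of these, Hba-a1 had 582, 512 and 454 FPKM in extract livers and 1249, 2003 and 688 FPKM in water livers, so that water 3 was the lowest water library for it as for Cyp17a1. These likenesses describe 6 libraries from the contrast that chose the members.

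Beyond the 8 members, 90 further genes of steroid metabolism in 7 lists were followed, of which 65 were tested. By limma, with p adjusted over all 10282 genes, 0 passed (20 had an unadjusted p below 0.05, 12 higher and 8 lower in extract livers, where 10.3% of all genes did), and the count was also 0 under each of the 13 alternatives run. Groups did not overlap for 13 with extract above and 8 with extract below, or 32.3%, against 15.9% of all genes tested. As the lists were chosen with earlier results of these data known, nothing is read from these shares. The median log2 difference was 0.06, against 0.03 over all genes tested.

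Among relatives of the cluster, 3 of 7 listed genes were tested and 0 passed by limma (1 at unadjusted p below 0.05). Hsd3b7, on chromosome 7 (chr7:127800609-127803802), is the family member of bile acid synthesis and acts on hydroxylated cholesterol. It had 123, 114 and 125 FPKM in extract livers, against 73.5, 76.2 and 72.1 FPKM in water livers, tight groups with no overlap and a log2 difference of 0.70 (standard error 0.11, limma adjusted p = 0.0882). Of its transcript windows 6.30% were its own, and the others were shared with the annotated gene Gm49388. Nsdhl, a sterol dehydrogenase of cholesterol synthesis, and Sdr42e1 had overlapping groups (limma adjusted p = 0.618 and 0.739).

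Of 12 listed genes of steroid synthesis in adrenal and gonads, 5 were tested and 0 passed by limma (1 at unadjusted p below 0.05), with a median log2 difference of 0.005. Fdxr, which passes electrons to mitochondrial P450s, averaged 10.1 ± 1.49 FPKM in extract livers and 14.9 ± 3.88 FPKM in water livers (SD, n = 3 each; limma adjusted p = 0.396). Cyp21a1, a hydroxylase of corticoid synthesis, averaged 1.55 ± 0.354 FPKM in extract livers and 1.22 ± 0.762 FPKM in water livers, and the mitochondrial cholesterol-binding protein gene Tspo had a log2 difference of 0.17 (limma adjusted p = 0.816 and 0.844). Cyp11b1 and Cyp11b2 were listed at 0 in all 6 libraries and Cyp11a1 at 0 in all but water 1, where it had 0.03 FPKM.

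The redox partners of these enzymes had 2 of 7 at unadjusted p below 0.05, both lower, and 0 passed by limma. Por, the reductase that supplies every microsomal P450, had 274, 280 and 329 FPKM in extract livers, against 400, 523 and 438 FPKM in water livers (log2 difference -0.62, standard error 0.15, limma adjusted p = 0.212). Cyb5r3, which reduces cytochrome b5, averaged 248 ± 20.8 FPKM in extract livers and 353 ± 26.8 FPKM in water livers (SD, n = 3 each; limma adjusted p = 0.226). Pgrmc1, a haem-binding partner of P450s, averaged 636 ± 42.4 and 567 ± 39.6 FPKM in extract and water livers (limma adjusted p = 0.758). H6pd, which supplies NADPH to Hsd11b1 inside the endoplasmic reticulum, had overlapping groups, and the ratio of Hsd11b1 to H6pd was 5.65, 3.95 and 7.72 in extract livers and 11.1, 6.25 and 5.99 in water livers.

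Of 12 steroid and aldo-keto reductases, 9 were tested and 0 passed by limma (2 at unadjusted p below 0.05, both higher). Akr1c6, which reduces ketosteroids such as estrone and androstenedione, had 664, 587 and 525 FPKM in extract livers, against 402, 339 and 366 FPKM in water livers (log2 difference 0.68, standard error 0.14, limma adjusted p = 0.173). Akr1c14, a hydroxysteroid dehydrogenase acting on dihydrotestosterone, averaged 116 ± 8.45 FPKM in extract livers and 89.2 ± 2.58 FPKM in water livers (SD, n = 3 each; limma adjusted p = 0.294). Srd5a3, a relative of Srd5a1 that makes dolichol, had a log2 difference of 0.28 (limma adjusted p = 0.525).

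Among 14 other hydroxysteroid dehydrogenases and relatives, 10 were tested and 0 passed by limma (1 higher and 2 lower at unadjusted p below 0.05). Rdh16, a microsomal retinol and steroid dehydrogenase, had 29.5, 33.5 and 25.8 FPKM in extract livers, against 50.02, 44.9 and 55.1 FPKM in water livers (log2 difference -0.74, standard error 0.14, limma adjusted p = 0.142). Hsd17b10, a mitochondrial enzyme of isoleucine breakdown, averaged 120 ± 5.09 FPKM in extract livers and 165 ± 24.1 FPKM in water livers (SD, n = 3 each; limma adjusted p = 0.323). Hsd17b6, which oxidises androstanediols, averaged 558 ± 92.4 FPKM in extract livers and 407 ± 15.0 FPKM in water livers (SD, n = 3 each; limma adjusted p = 0.384).

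Hydroxylation and conjugation had 12 of 16 genes tested, and 0 passed by limma (4 higher and 3 lower at unadjusted p below 0.05). The glucuronosyltransferase gene Ugt2b5, the gene most like Hsd3b5 in pattern, had 361, 430 and 331 FPKM in extract livers, against 226, 213 and 243 FPKM in water livers (log2 difference 0.71, standard error 0.14, limma adjusted p = 0.155). Ugt2b36 averaged 334 ± 18.6 FPKM in extract livers and 243 ± 17.2 FPKM in water livers (SD, n = 3 each; limma adjusted p = 0.239). Both belong to a family of similar genes whose reads may be divided among copies. Cyp7b1, the hydroxylase of oxysterols and of dehydroepiandrosterone, had 16.1, 17.8 and 8.45 FPKM in extract livers, against 8.02, 4.32 and 4.45 FPKM in water livers (log2 difference 1.18, standard error 0.30, limma adjusted p = 0.234).

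Of 22 receptors and regulators, 19 were tested and 0 passed by limma (4 at unadjusted p below 0.05, all higher). Bcl6, a repressor in the growth hormone pathway of liver, had 3.61, 7 and 5.14 FPKM in extract livers, against 2.74, 1.90 and 2.30 FPKM in water livers (limma adjusted p = 0.202). The mineralocorticoid receptor gene Nr3c2 had 2.17, 1.96 and 3.84 FPKM in extract livers, against 0.65, 1.32 and 1.03 FPKM in water livers (limma adjusted p = 0.226). The nuclear receptor Nr0b2, a repressor of sterol genes, averaged 47.2 ± 21.6 FPKM in extract livers and 20.8 ± 10.5 FPKM in water livers, with overlapping groups (SD, n = 3 each; limma adjusted p = 0.422).

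**Figure D5:**
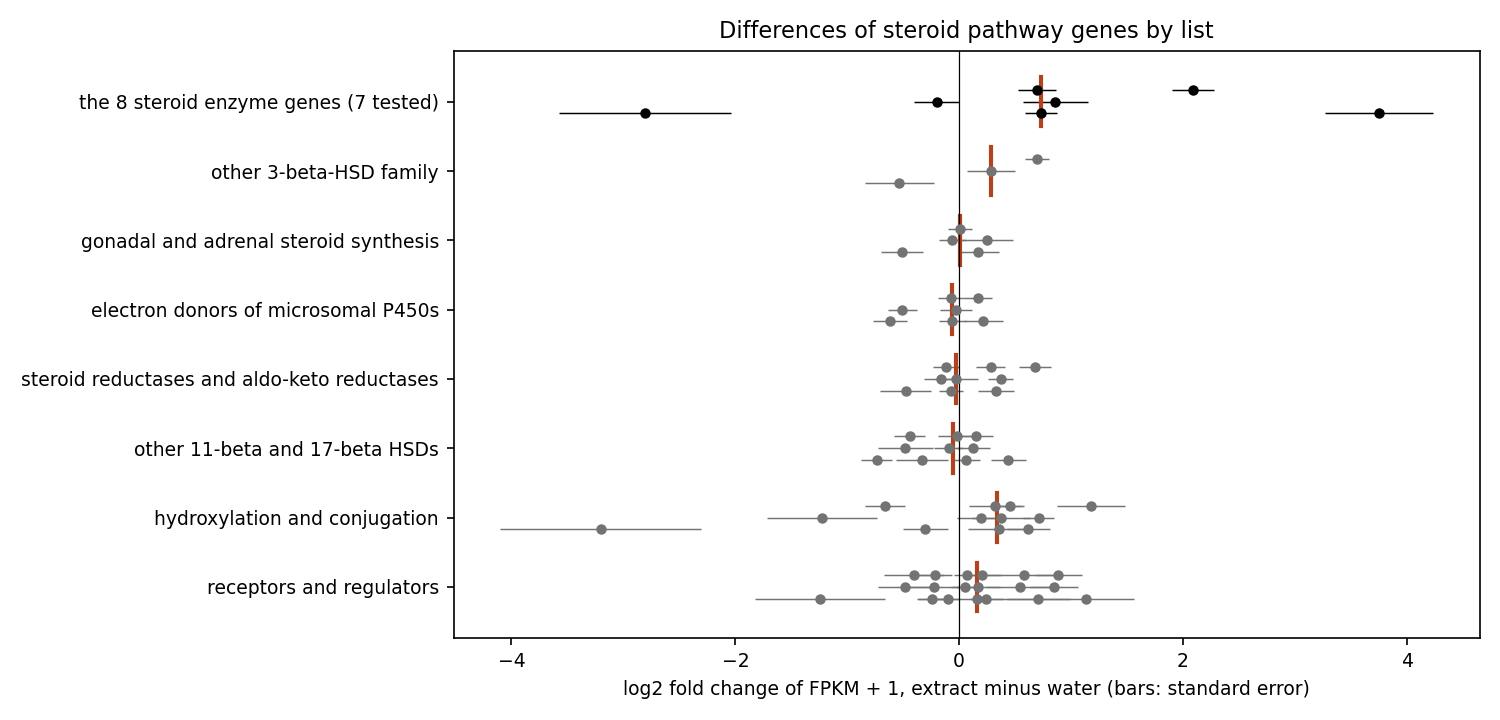
Log2 difference of FPKM + 1, extract minus water, of each tested gene by list; bars are standard errors and vertical marks list medians. The members, chosen on this contrast, run from -2.80 to 3.75, and list medians of the other genes lie between -0.06 and 0.34.

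Markers of other cell types were read beside these values. All 10 Kupffer cell markers had a positive log2 difference, as did 57.5% of all genes tested. Their median was 0.66, with a summed level of 210 to 322 FPKM in extract livers and 130 to 154 FPKM in water livers. By limma 0 passed and 8 had an unadjusted p below 0.05, where 10.3% of all genes did. None of these markers was at 0, and the part of Kupffer cells in the results above was not tested. All 10 sinusoidal endothelial markers had a negative log2 difference, with a median of -0.22. By limma 0 of these passed and only 1 had an unadjusted p below 0.05. Their summed level was 136 to 162 FPKM in extract livers and 155 to 191 FPKM in water livers, and the part of endothelial cells was not tested. Red cell markers summed to 529 to 810 FPKM in extract livers and 791 to 2774 FPKM in water livers, with 0 of 7 at 0 in all libraries. Of the 5 tested, 4 had a negative log2 difference and 1, Alas2, a positive one (0.87). Hbb-bs split the libraries within groups, at 135, 1.95 and 0.90 FPKM in extract livers and 338, 534 and 0 FPKM in water livers. Hbb-bt was split in the same way, and both are part of the red cell sums, which therefore partly follow this split. The part of red cells was not tested either. Hepatocyte markers had a median log2 difference of 0.05, with 5 positive and 5 negative, and stellate markers one of 0.06. Hepatocyte markers summed to 74080 to 85080 FPKM in extract livers and 89220 to 93870 FPKM in water livers. Alb, the most abundant of them, was lower in every extract library than in every water library. The part of hepatocyte content in the results was not tested.

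Adrenal, gonads and kidney also express genes of this cluster, and the part of such tissue in the results was not tested. Kidney tubule markers summed to 0.08 to 0.17 FPKM in extract livers and 0.15 to 0.18 FPKM in water livers, with Umod and Hsd11b2 listed at 0 throughout. Steroid gland markers summed to 41.6 to 44.0 FPKM in extract livers and 43.0 to 55.0 FPKM in water livers, of which Mrap gave 37.0 to 39.4 and 39.7 to 49.8 FPKM, while Cyp11b1 and Cyp11b2, which define adrenal cortex, were listed at 0. Pancreas acinar markers summed to 6.64 to 11.3 FPKM in extract livers and 6.58 to 8.59 FPKM in water livers, with Prss2 and Cpa1 at 0. Most of this was Cela1, at 6.12 to 9.41 FPKM in extract livers and 5.79 to 7.70 FPKM in water livers. Of 8 cholangiocyte markers 2 were tested, and the list summed to 19.0 to 33.2 FPKM in extract livers and 12.8 to 20.3 FPKM in water livers. Most of that was Spp1, at 16.5 to 27.1 FPKM in extract livers and 10.6 to 16.5 FPKM in water livers.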

How the data were processed

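Liver mRNA, purified with oligo(dT) beads, was sequenced from 3 extract and 3 water libraries. Groups and replicate numbers follow the labels. Among the programs, RSEM 1.2.12, HISAT2 2.0.4, DESeq2 1.4.5 and Bowtie2 2.2.5, with the build GRCm38, are listed without roles per the submitters' processing notes. The deposited values are treated as FPKM. The file names no unit, and FPKM was inferred from values with 2 decimals whose sums differ between libraries and whose products with transcript length sum to a like amount in each. Very abundant transcripts can shift all other FPKM values, and read depth is unknown.

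Of 22899 rows, 17738 had values. The 10282 genes that reached 1 FPKM in 3 or more libraries were fitted on log2(FPKM + 1) by limma 3.58.1 (R 4.3.3) using a trended prior, with no block. The script was tested on simulated data. A count model had been planned in case the table held counts. Fold changes on this scale understate those of low genes. Members and lists were chosen with earlier results of these data known. Genes named were the members, the other Hsd3b genes, the 3 of smallest p in each pathway list (none held a called gene), the 5 genes most like Hsd3b2, Hsd3b5 and Cyp17a1, and chromosomal neighbours. Any other gene was named after its values were seen. Coordinates and promoters come from RefSeq (GRCm38.p6) and transcripts from GENCODE M21, compared with Biopython 1.88. Scaling, pseudocount, filter, prior, block and single libraries were varied.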

Additional observations from a re-analysis of the deposited data

How the results depend on the processing

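The count of genes called by limma depended on nearly every choice tried. It was 5 in the fit as reported, with a robust prior variance, and with a minimum mean of 5 FPKM. It was 2 after quantile normalization or with a pseudocount of 0.1, and 0 with every library centred on the median of its genes or with no filter on low values (1061 and 1566 genes at unadjusted p below 0.05). Leaving out 1 library gave 0 to 48. The cause of these shifts was not tested. Same-numbered libraries were not treated as paired, since the labels give no pairing. Their deviations from the group means had correlations across genes of -0.017, -0.177 and 0.117, and not every library correlated best with its own number. Such correlations cannot show whether the libraries were paired by design. With the replicate number as a block the count was 0 (922 genes at unadjusted p below 0.05). The log2 difference of the Hsd3b cluster total was 1.445 with all libraries and 1.205 to 1.757 with 1 left out. No sign among the 7 fitted members changed under the 13 alternatives, but most of these could not have changed one. The filter, prior and block settings cannot alter these differences and left each as in the fit as reported. The smallest difference, that of Hsd11b1, came closest to 0 at -0.01 without extract 2. Leaving out a library or changing the pseudocount could have changed only the sign of Hsd11b1, as the groups of the other fitted members did not overlap. With a pseudocount of 0.1 the log2 differences of Hsd3b5 and Cyp17a1 were 4.12 and -3.60. Count-based tests were not run, as the values are not counts. Unknown depth limits most what can be read from genes below 1 FPKM, such as Hsd3b6.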

Other observations

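Several steroid genes fell below the expression minimum and were not tested; those named here were chosen after their values were seen. Sult1e1, the estrogen sulfotransferase gene, had 0.09, 0.04 and 0 FPKM in extract livers and 1.55, 0.57 and 0.05 FPKM in water livers. Akr1c18, which inactivates progesterone, had 0.62, 0 and 0.20 FPKM in extract livers and 2.11, 1.56 and 0.55 FPKM in water livers. In both genes water 3 lay inside or beside the extract range, as it did for Cyp17a1. Ugt2b38 had 0.75, 1.01 and 0.15 FPKM in extract livers and 0, 0.09 and 0.10 FPKM in water livers, with extract 3 nearest to water, as for Hsd3b5 and Hsd3b6.

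Libraries did not line up in the same way for all steroid and sex-biased genes. Cux2, a regulator known for higher expression in female mouse liver, had 1.51, 0.67 and 8.26 FPKM in extract livers and 4.45, 8.50 and 8.95 FPKM in water livers, so extract 3 lay with water. For Cyp17a1 extract 3 had 0.62 FPKM, the lowest of all libraries. Cyp2a4, a testosterone hydroxylase known for higher expression in female mouse liver, had 149, 8.70 and 21.6 FPKM in extract livers and 172, 461 and 321 FPKM in water livers (limma adjusted p = 0.263), and there extract 1 lay nearest to water. Fkbp5, a target of the glucocorticoid receptor, had 20.96, 39.0 and 42.55 FPKM in extract livers and 43.6, 48.6 and 46.0 FPKM in water livers (limma adjusted p = 0.564), while Tsc22d3, another such target, had overlapping groups (limma adjusted p = 0.598).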
